A study of Mus musculus with 6 samples.

Results

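The Notch genes described here are 4 receptors (Notch1, Notch2, Notch3 and Notch4), 4 ligands (Jag1, Jag2, Dll1 and Dll4) and 2 target genes (Hes1 and Hey1). They were found in the expression table by gene symbol. Each matched 1 transcript cluster, the set of probes that reads 1 gene, so the 10 genes are 10 of the 22206 transcript clusters tested. Of these 10, Notch1 was higher in mutant ducts at an adjusted p under 0.05, a call that was lost whenever 1 array was left out, and no member was lower. Jag1, Dll4 and Hes1 were higher on every mutant than on every control array but did not pass, and the other 6 had intervals that include 0. Outside this set, 2 other genes of the pathway passed, and both rose by more than any member. These were Hey2, a transcription factor of the same family as Hey1, and Fbxw7, which encodes a ubiquitin ligase subunit for the Notch intracellular domain.

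Notch signalling passes between touching cells. A ligand of the Jagged or Delta-like family on one cell binds a Notch receptor on its neighbour, the receptor is cut by proteases, and its intracellular domain enters the nucleus. There it joins the DNA-binding protein RBPJ and switches on genes such as those of the HES and HEY repressors. In developing organs the pathway is best known for choices between neighbouring cell fates, for arterial endothelium and for the mural cells around vessels. JAG1 is also known in other tissues as a target of YAP and TAZ, the coactivators that the LATS kinases restrain.

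The RNA came from mouse embryos at E17.5, late in gestation, whose Müllerian ducts were dissected, and 1 array was run for each of 6 embryos, which the labels call biological replicates. The 3 control embryos had the genotype Lats1f/f,Lats2f/f, with floxed alleles of both kinase genes and no Cre. The 3 mutant embryos had the genotype Lats1f/f,Lats2f/f,Amhr2cre/+, so they share the floxed alleles and carry Cre in 1 copy of Amhr2, the gene for the receptor of anti-Müllerian hormone. Amhr2 is expressed in the mesenchyme around the duct, so Cre acts there and not in every cell of the sample. The labels give neither sex nor litter. The ducts were measured whole, and in such bulk samples fewer cells of a type and less RNA per cell cannot be told apart.

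The targeted genes were at 12.13 to 12.51 in control and 11.12 to 11.77 in mutant ducts for Lats1 (limma adjusted p = 0.0958), and at 11.17 to 11.58 and 11.32 to 11.95 for Lats2. Where the probes lie relative to the floxed exons was not analysed here, so these values do not test the deletion. Array medians lay between 6.87 and 6.95 on the log2 scale. The median of the 23 background probes was 5.35 to 5.86 on control and 5.67 to 5.88 on mutant arrays, so it was lowest on control 1 and control 2. Markers of Müllerian mesenchyme and epithelium such as Nr2f2 and Pax8 were above background on all arrays, but Lhx1 was below it on all 6. Control 3 stood apart, with Upk2, a urothelial gene, at 12.21 against at most 4.16 on the other 5 arrays. Its urothelial list had a mean deviation of 4.13 from the mean over arrays, and its neuron and glia list one of 1.97. The results below are therefore also given without control 3 where it matters. Between the genotypes, 3.26% of the 22206 transcript clusters had a limma adjusted p under 0.05. The number of arrays is small, which limits the precision of every value below.

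**Figure D1:**
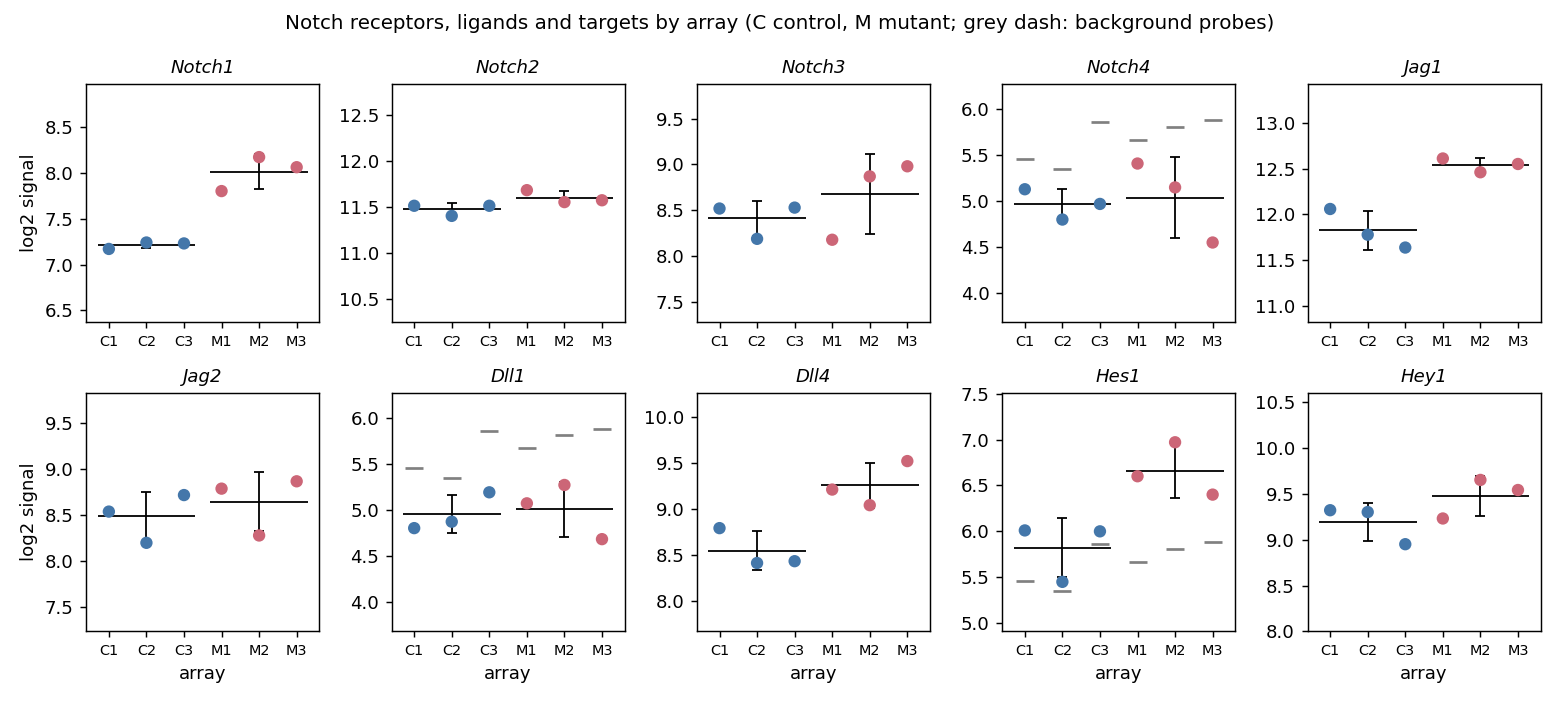
Log2 signal (y axis) of the 10 Notch members on the 3 control arrays (C, blue) and 3 mutant arrays (M, red), with a line at each group mean, its SD as a bar, and grey dashes at the array's background-probe median where it falls within the axis. Every panel spans the same number of log2 units, and Notch1, Jag1, Dll4 and Hes1 show the widest gaps between groups, while Notch4 and Dll1 lie under the background marks.

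The receptors were read first. Notch1, a receptor expressed widely in embryonic tissue and in endothelium, had log2 signals of 7.17, 7.24 and 7.23 on the control arrays and 7.80, 8.17 and 8.06 on the mutant arrays. All 3 mutant arrays lay above all 3 control arrays, and the controls were close together. The difference was 0.80 ± 0.17 (SE), a 1.74-fold rise with a 95% interval of the log2 difference from 0.42 to 1.17 and a limma adjusted p of 0.0337. This was 1 of 10 members called higher, where 2.59% of all transcript clusters were called higher. The call did not hold when any 1 of the 6 arrays was left out, with limma adjusted p from 0.0570 to 0.128. The size of the difference hardly moved in those fits, from 0.72 to 0.90.

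The RefSeq promoter of Notch1 is shown because Notch1 is the member that passed. It runs from 250 bases before to 10 bases after the annotated start, on the minus strand of chr2:26503813-26504072 in GRCm38.p6, and is written 5′ to 3′ along the gene. Capitals mark matches to GGAATG or its reverse complement CATTCC, the core letters bound by TEAD factors, the DNA-binding partners of YAP and TAZ.
Notch1: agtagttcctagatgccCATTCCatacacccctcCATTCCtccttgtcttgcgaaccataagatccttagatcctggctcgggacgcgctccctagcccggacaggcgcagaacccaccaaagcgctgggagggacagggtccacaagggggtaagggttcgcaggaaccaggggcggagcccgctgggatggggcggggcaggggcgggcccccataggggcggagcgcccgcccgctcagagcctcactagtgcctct
There were 2 matches on the reverse strand, at -233 to -228 and at -216 to -211 from the start. Of 32851 RefSeq promoters of 300 bases, 14.7% held at least 1 match on either strand, and 1.33% held 2 or more. A match is a run of letters and not a measured binding site.

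Notch2, the receptor that Jag1 acts on in bile duct development, had log2 signals of 11.51, 11.40 and 11.51 in control and 11.68, 11.55 and 11.57 in mutant ducts. The groups did not overlap, but they were separated by less than the range within either group. The log2 difference was 0.13 ± 0.15 (SE), with an interval from -0.22 to 0.47. Notch3, the receptor of pericytes and vascular smooth muscle, was at 8.52, 8.19 and 8.53 in control and 8.18, 8.87 and 8.98 in mutant ducts. Mutant 1 was lower than all 3 controls, so the groups overlapped, and the log2 difference of 0.26 ± 0.23 (SE) had an interval from -0.27 to 0.79. Notch4, an endothelial receptor, was below the background median on all 6 arrays, at 4.80 to 5.13 in control and 4.55 to 5.41 in mutant ducts. No fold is given for it.

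Among the ligands, Jag1 was the nearest to the threshold. Its log2 signals were 12.06, 11.78 and 11.64 in control and 12.61, 12.46 and 12.55 in mutant ducts. The mutant arrays agreed within 0.15 and were all above the highest control. The log2 difference was 0.72 ± 0.17 (SE), 1.64-fold, with an interval from 0.33 to 1.10 and a limma adjusted p of 0.0616. It passed where dim rows were left out (adjusted p = 0.0457 at the 25th percentile of mean signal and 0.0246 at the median) and with a variance prior that follows the mean signal (adjusted p = 0.0181). Without control 3, which had the lowest Jag1 signal, the difference was 0.62 (adjusted p = 0.162).

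Dll4, the Delta-like ligand of arterial and sprouting endothelium, was at 8.79, 8.41 and 8.43 in control and 9.21, 9.04 and 9.52 in mutant ducts. Its groups did not overlap either. The log2 difference of 0.71 ± 0.19 (SE), 1.64-fold, had an interval from 0.28 to 1.15 and a limma adjusted p of 0.0963, and it passed where rows under the median of mean signal were left out (adjusted p = 0.0434). Jag2, a ligand often found in epithelia, was at 8.54, 8.20 and 8.72 in control and 8.79, 8.28 and 8.87 in mutant ducts. Control 2 and mutant 2 were the lowest of their groups, and the log2 difference was 0.16 ± 0.22 (SE) with an interval from -0.32 to 0.65. Dll1, which acts in somites and neural progenitors, was below background on all 6 arrays, at 4.80 to 5.19 in control and 4.68 to 5.27 in mutant ducts, so no fold is given.

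The target Hes1 encodes a basic helix-loop-helix repressor that the Notch intracellular domain and RBPJ induce directly. Its log2 signals were 6.01, 5.45 and 6.0 in control and 6.60, 6.97 and 6.40 in mutant ducts, with no overlap. The log2 difference was 0.84 ± 0.22 (SE), 1.79-fold, with an interval from 0.34 to 1.34 and a limma adjusted p of 0.0886. It was the largest fitted difference of the 10 members, on a dim signal. The control signals stood 0.10 to 0.55 above the background median of their arrays and the mutant signals 0.52 to 1.17 above theirs. Hey1, a related repressor of endothelium and other Notch-responsive tissue, was at 9.32, 9.30 and 8.95 in control and 9.23, 9.65 and 9.54 in mutant ducts. Mutant 1 fell among the controls, and the log2 difference was 0.28 ± 0.19 (SE) with an interval from -0.14 to 0.71. Without control 3 it was 0.16.

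Read as a group, 5 of the 10 members did not overlap between genotypes and were higher in mutants (Notch1, Notch2, Jag1, Dll4 and Hes1), where 10.9% of all transcript clusters did so, and none was lower without overlap. Without control 3, an alternative added after seeing the data, 5 of 10 again separated, beside 15.9% of all transcript clusters. The fitted difference was above 0 for all 10, including Notch4 and Dll1, which lay below background and whose sign turned without control 2 or mutant 1 for Notch4 and without control 1 or mutant 2 for Dll1. Over all 22206 transcript clusters it was above 0 for 10773. The median log2 difference over the members was 0.27, beside -0.01 over all transcript clusters. By limma, 4 members were higher and 0 lower at an unadjusted p under 0.05, where 8.49% of all transcript clusters were higher and 6.81% lower. The groups of Notch1 and Jag1 also stayed apart after each array's background median was subtracted, at 1.37 to 1.89 against 2.13 to 2.37 for Notch1 and at 5.78 to 6.60 against 6.66 to 6.94 for Jag1. Those of Notch2, Dll4 and Hes1 then overlapped. Of all 22206 transcript clusters, 7224 lay below background on all 6 arrays, as did 2 of the 10 members. The members were chosen with earlier results of these data known, so these counts describe the group and do not test it.

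**Figure D2:**
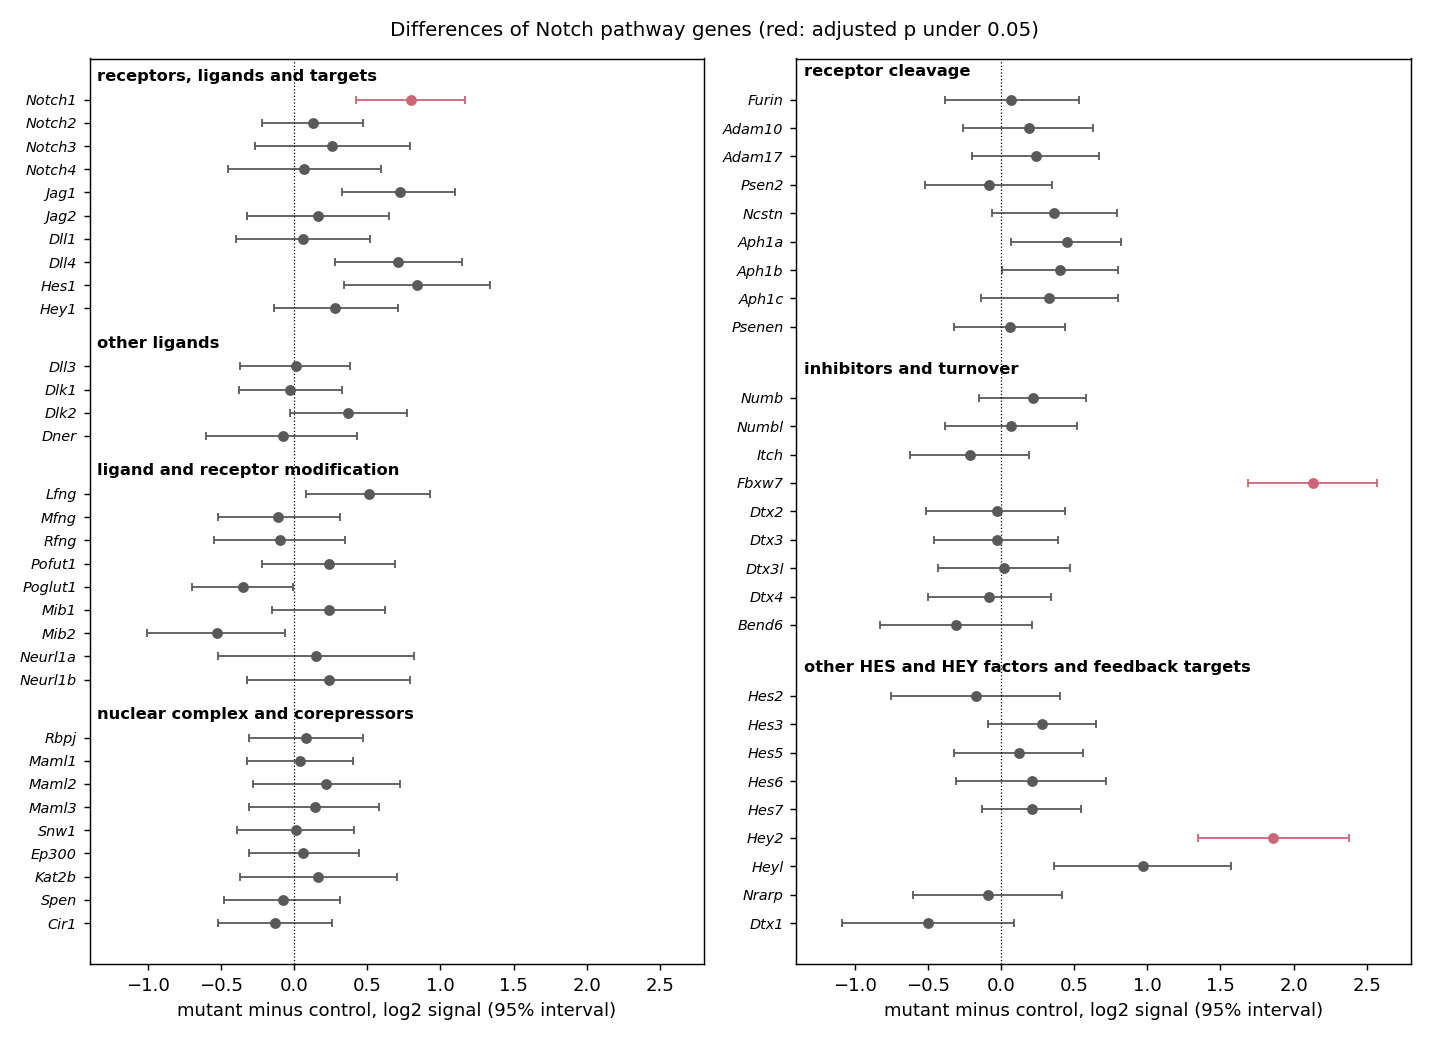
Difference of mutant and control group means in log2 signal (x axis) with its 95% interval for the 10 members and 49 other Notch pathway genes, grouped by role, with genes at a limma adjusted p under 0.05 in red. Notch1 (0.80), Hey2 (1.86) and Fbxw7 (2.13) are the genes in red, and the intervals of Jag1, Dll4 and Hes1 lie above 0 without passing.

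The rest of the pathway was read from a list of 51 genes, of which 49 were measured. Of these, 2 rose and 0 fell (limma, adjusted p under 0.05), where 2.59% of all transcript clusters were called higher and 0.666% lower. At an unadjusted p under 0.05, 6 were higher and 2 lower, beside the 8.49% and 6.81% of all transcript clusters given above. Their groups did not overlap for 10 genes higher and 1 lower in mutants, beside 10.9% and 10.2% of all transcript clusters. The median log2 difference of the 49 genes was 0.07, and 7 of them were below background on all 6 arrays.

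Hey2 rose the most among the HES and HEY factors. It encodes a repressor best known from arterial endothelium, heart and smooth muscle, and its log2 signals were 9.50, 9.64 and 9.71 in control and 11.12, 11.36 and 11.98 in mutant ducts. The lowest mutant array was above the highest control by more than the range within either group. The difference of 1.86 ± 0.23 (SE) was a 3.64-fold rise with an interval from 1.35 to 2.38 and a limma adjusted p of 0.00240. It passed under each of 13 alternatives, with adjusted p from 0.000306 to 0.0155. Heyl, the third gene of the HEY family, was named after its values were seen. It stood at 8.10, 8.52 and 7.99 in control and 8.91, 8.84 and 9.77 in mutant ducts, without overlap, and its log2 difference of 0.97 ± 0.27 (SE) had a limma adjusted p of 0.106. After each array's background median was subtracted, the groups of Heyl overlapped, at 2.13 to 3.17 against 3.03 to 3.89. Whether the differences of Hey1, Hey2 and Heyl differ from each other was not tested.

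The RefSeq promoter of Hey2 is shown because Hey2 rose and its family are the classical readout of Notch activity. It covers the same window, on the minus strand of chr10:30842774-30843033 in GRCm38.p6, written along the gene. Capitals mark matches to GTGGGAA or its reverse complement TTCCCAC, the core letters bound by RBPJ, and to the TEAD letters given for Notch1.
Hey2: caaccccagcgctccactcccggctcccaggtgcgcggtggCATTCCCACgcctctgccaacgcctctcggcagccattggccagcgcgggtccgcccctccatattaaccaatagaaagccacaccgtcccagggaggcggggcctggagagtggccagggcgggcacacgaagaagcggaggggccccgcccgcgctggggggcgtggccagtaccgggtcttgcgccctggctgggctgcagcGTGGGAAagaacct
There were 2 RBPJ matches, on the forward strand from -4 to 3 and on the reverse strand from -207 to -201. A TEAD match on the reverse strand, from -209 to -204, shared its last letters with the second of these. Over all 32851 promoters, 6.38% held at least 1 RBPJ match and 0.256% held 2 or more. RefSeq promoters were found for 8 of the 10 members, 9 in all, of which 0 held the RBPJ letters and 2 the TEAD letters (Notch1 and Notch4). Those of Hes1, Hey1 and Heyl were not found, and the 3 promoters of Fbxw7 held neither motif.

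Among the remaining HES factors and feedback targets no gene passed. Hes7 and Hes3, named after their values were seen, had groups that did not overlap, with log2 differences of 0.21 ± 0.15 and 0.28 ± 0.17 (SE). The groups of both overlapped after each array's background median was subtracted. Hes3 was below background on every array. The feedback inhibitor Nrarp and the ubiquitin ligase Dtx1, both induced by Notch in many tissues, had log2 differences of -0.09 ± 0.23 and -0.50 ± 0.26 (SE) with overlapping groups, and were likewise named after their values were seen.

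**Figure D3:**
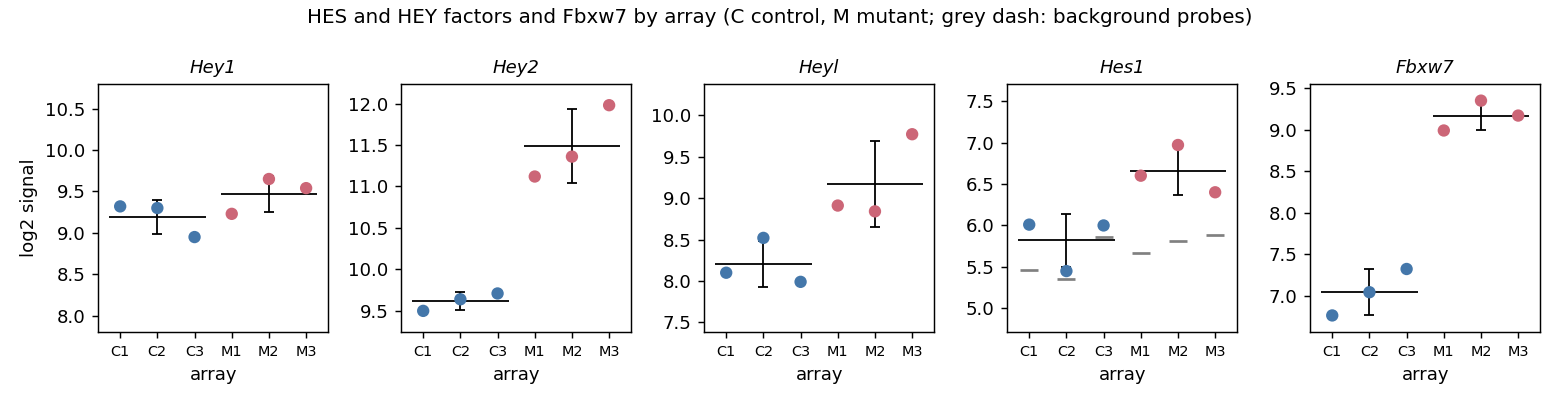
Log2 signal (y axis) of Hey1, Hey2, Heyl, Hes1 and Fbxw7 on 3 control arrays (C, blue) and 3 mutant arrays (M, red), with group means as lines, SDs as bars and background-probe medians as grey dashes where they fall within the axis. The 3 mutant arrays of Hey2 (11.12 to 11.98) and Fbxw7 (8.99 to 9.35) lie well above their controls, and those of Hey1 mix with them.

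Among inhibitors and turnover factors, Fbxw7 rose and no other of 9 genes passed. FBXW7 is the substrate receptor of an SCF ubiquitin ligase that marks the Notch intracellular domain, cyclin E and MYC for degradation. Its log2 signals were 6.76, 7.04 and 7.32 in control and 8.99, 9.35 and 9.17 in mutant ducts. The groups were far apart compared with their ranges of 0.56 and 0.36. The difference of 2.13 ± 0.19 (SE) was a 4.37-fold rise with an interval from 1.69 to 2.57 and a limma adjusted p of 0.000551, and it passed under each of 13 alternatives (adjusted p from 0.000114 to 0.00444). The other 8 genes, among them the Notch antagonist Numb, did not pass.

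No gene of the remaining roles passed. Of 9 genes that modify ligands and receptors, the one with the smallest p was Lfng, a sugar transferase that changes which ligand a receptor prefers. Its signals were 8.59, 8.96 and 8.88 in control and 9.28, 9.56 and 9.12 in mutant ducts, a log2 difference of 0.51 ± 0.19 (SE) at a limma adjusted p of 0.231. After each array's background median was subtracted, the groups of Lfng overlapped, at 3.03 to 3.61 against 3.24 to 3.76. Poglut1, which adds glucose to the EGF repeats of Notch, was the 1 pathway gene lower on every mutant than on every control array, at 11.98 to 12.14 against 11.72 to 11.76. Its log2 difference was -0.35 ± 0.15 (SE), with a limma adjusted p of 0.318. Mib2, of the same role, had a log2 difference of -0.53 ± 0.21 (SE, limma adjusted p = 0.265), and its groups overlapped. Poglut1 and Mib2 were named after their values were seen.

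Of 9 genes for receptor cleavage, 8 had a difference above 0, beside 10773 of all 22206 transcript clusters, and none passed. Aph1a, a subunit of gamma-secretase, had the smallest p, with signals of 12.15, 12.14 and 12.18 in control and 12.67, 12.76 and 12.38 in mutant ducts and a log2 difference of 0.45 ± 0.17 (SE, limma adjusted p = 0.236). The gamma-secretase subunits Ncstn (0.36 ± 0.19) and Aph1b (0.40 ± 0.18), named after their values were seen, also did not overlap between groups. After each array's background median was subtracted, the groups of Aph1a, Ncstn and Aph1b overlapped. In the nuclear complex, Rbpj, also named after its values were seen, was at 13.06, 13.03 and 13.42 in control and 13.16, 13.31 and 13.27 in mutant ducts, and its log2 difference had an interval from -0.31 to 0.47. The coactivator Maml2 had the smallest p of 9 genes there, with a log2 difference of 0.22 ± 0.22 (SE), and no gene of this role separated between groups. Of 4 other ligands, the non-canonical Dlk2 had the smallest p, with a difference of 0.37 ± 0.18 (SE) close to background.

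Notch genes mark several cell types, so marker lists of those cells were read on the same arrays. The mean deviation of the 4 receptors from their means over arrays was -0.27 to -0.09 in control and 0.09 to 0.26 in mutant ducts, that of the 4 ligands -0.34 to -0.11 and 0.11 to 0.27. Of 13 endothelial markers 2 rose (Kdr and Flt1, both VEGF receptors) and 1 fell (Sox17), and the list's mean deviation overlapped between groups, at -0.05 to 0.04 and -0.12 to 0.11. No endothelial marker was below background on all arrays. The Kdr call held without any 1 array, that of Flt1 was lost in 4 of those 6 fits (without control 1, control 2, mutant 1 or mutant 2; adjusted p up to 0.0965), and that of Sox17 in 5 (all but without control 2; adjusted p up to 0.162). The defining endothelial gene Cdh5 had a log2 difference of -0.07 ± 0.18 (SE), and Pecam1 one of -0.23 ± 0.22. Of 6 pericyte markers 1 rose (Pdgfrb, 0.91 ± 0.18), and the list separated the groups, at -0.47 to -0.17 and 0.21 to 0.34. Taken singly, 2 of the 6 (Pdgfrb and Mcam) did not overlap between groups, while Rgs5, Kcnj8, Abcc9 and Cspg4 did. The Pdgfrb call was lost in 5 of the 6 fits with an array left out (all but without mutant 3; adjusted p up to 0.0974). The part of pericytes in the values of Notch3 and Heyl was not tested. The endothelial and pericyte markers in this paragraph were named after their values were seen.

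Macrophage markers moved with the genotype as well. Of 10 measured, 6 rose and none fell (4 to 6 rose with 1 array left out), and their mean deviation was -0.59 to -0.52 in control and 0.46 to 0.68 in mutant ducts. Of 14 immediate early and stress genes, which handling of tissue can raise, 5 rose and none fell (3 without control 2 or mutant 1, 7 without control 3), with -0.72 to -0.23 in control and 0.53 to 0.60 in mutant ducts. Both lists separated the same arrays as Notch1, Jag1, Dll4, Hes1, Hey2 and Fbxw7, and their part in those values was not tested. Of 6 measured mesenchymal markers 1 fell, Amhr2, the gene into which Cre was inserted, and no marker rose. Amhr2 stood at 10.51 to 10.88 in control and 6.54 to 7.52 in mutant ducts, a log2 difference of -3.73 ± 0.25 (SE). Mutants carry Cre in 1 copy of the gene, and the part of the insertion in this fall was not tested. Mesenchymal markers called lower numbered 3 without mutant 2, and 2 with either filter on dim rows, the trended robust prior, array weights or the replicate block. The list's mean deviation was 0.37 to 0.70 in control and -0.76 to -0.14 in mutant ducts, but without Amhr2, an alternative added after seeing the data, the groups overlapped, at 0.06 to 0.44 and -0.45 to 0.11. Differences were below 0 for 5 of the 6 markers and above 0 for 1. By limma, 4 were lower and 0 higher at an unadjusted p under 0.05, beside 6.81% and 8.49% of all transcript clusters. Hoxa11 was lower without overlap, at 8.91 to 9.25 in control and 7.47 to 8.51 in mutant ducts, and did not pass (limma adjusted p = 0.0557). Of 7 smooth muscle markers 1 rose, Tagln (2.92 ± 0.30, limma adjusted p = 0.00108), and 3 rose without control 3. The differences were above 0 for 4 of the 7 and below 0 for 3. Des was lower without overlap, at 9.98 to 10.22 in control and 9.70 to 9.89 in mutant ducts, and did not pass (limma adjusted p = 0.405). Actg2 and Myh11 had log2 differences of -2.16 ± 1.53 and -1.21 ± 1.22 (SE) with overlapping groups. Acta2, smooth muscle actin, did not overlap between groups, and its log2 difference of 2.00 ± 0.69 (SE) had a limma adjusted p of 0.191 (0.00712 without control 3). The smooth muscle list spread widely among controls, from -1.84 to 1.70 with control 3 at the top, against 0.01 to 0.44 in mutant ducts, and its part in the values of Notch3, Hey2 and Heyl was not tested. The mean deviation of the epithelial list overlapped between groups, at -0.26 to 0.34 and -0.52 to 0.32. Of its 9 markers Lhx1 was called higher (limma adjusted p = 0.0358) but lay below background on all 6 arrays, and the call was lost in 5 of the 6 fits with an array left out (all but without control 1). Emx2 was lower without overlap, at 11.85 to 12.47 in control and 11.12 to 11.75 in mutant ducts, and did not pass (limma adjusted p = 0.174). Its groups overlapped after each array's background median was subtracted. The smooth muscle and epithelial markers in this paragraph, and Hoxa11, were named after their values were seen.

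**Figure D4:**
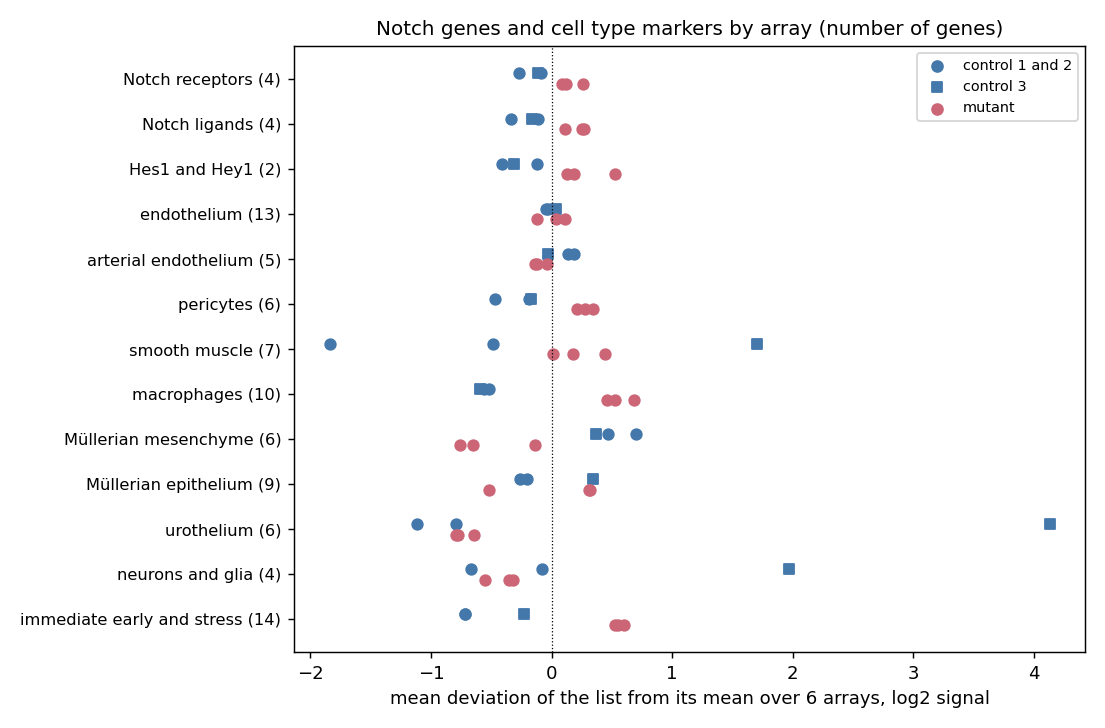
Mean deviation of each list from its mean over 6 arrays in log2 signal (x axis), for the Notch members by role and for marker lists (number of genes in brackets), with 1 point per array and control 3 as a square. The macrophage, pericyte and immediate early lists separate control from mutant arrays as the Notch lists do, and the endothelial list does not. The Müllerian mesenchyme list, which includes Amhr2, and the arterial endothelium list also separate them, with the mutant arrays lower. Control 3 is far to the right for urothelium (4.13).

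The genes whose profiles over the 6 arrays were most like that of Notch1 were Prickle1, Rbms1 and Dennd4a. Likeness was the root mean square difference between profiles centred on their means, which was 0.052, 0.086 and 0.088 log2 units. Prickle1, a planar cell polarity protein, stood at 10.32, 10.28 and 10.28 in control and 10.98, 11.25 and 11.17 in mutant ducts, so mutant 1 was its lowest mutant array, as for Notch1. No member other than Notch1 passed, so no other profile was matched.

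**Figure D5:**
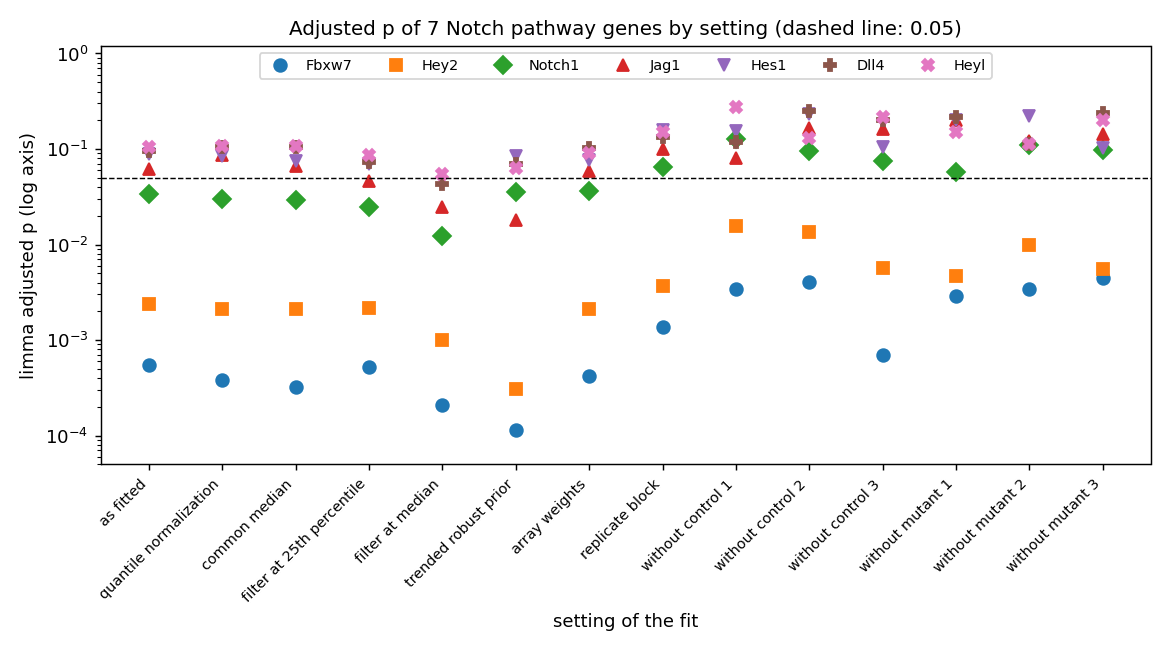
Limma adjusted p (y axis, log scale) of 7 Notch pathway genes as fitted, under 7 other settings of the fit and with each array left out (x axis), with a dashed line at 0.05. Fbxw7 and Hey2 stay below the line in each setting shown, Notch1 is above it with the replicate block and whenever an array is left out, and Hes1 and Heyl are above it in each setting shown.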

How the data were processed

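The authors deposited 1 table of log2 signals, 28846 rows by 6 arrays. Transcriptome Analysis Console 4.0 is named in the submitters' processing notes; how probes were summarised and arrays normalized, and on which genome build, the sources used here do not say. All 22206 transcript clusters were tested as deposited and control rows were left out. Gene symbols were taken from GEO's platform annotation (19572 rows with 1 symbol, 0 with several, 2634 not listed). A signal under the median of an array's 23 antigenomic probes is called below background.

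Groups followed the genotype in the labels. A linear model with genotype alone was fitted to each row in limma 3.58.1 (lmFit, eBayes; R 4.3.3), tests were two-sided, and p-values were adjusted by Benjamini-Hochberg over all tested rows, with a threshold of 0.05. Intervals are at 95%. On simulated data of 22206 rows, 49% of 100 rows changed by 1 and 88% of 100 rows changed by 2 (log2) were recovered, and 6 unchanged rows were called. Noise was normal and independent, and row SDs were shuffled over rows. These shares therefore do not give the recovery at a given signal level, nor with another number of changed rows.

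All 10 members were named, as were pathway genes past the threshold, the smallest p of each role without one, and for a called member the 3 nearest profiles. Members and lists were chosen with earlier results of these data known. Alternatives were quantile normalization, a common median, filters on dim rows, a trended robust prior, array weights, a replicate block and each array left out. Promoters are those of RefSeq (GRCm38.p6), motifs were searched on both strands, and figures used matplotlib 3.10.9.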

Additional observations from a re-analysis of the deposited data

How the results depend on the processing

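Members called higher numbered 1 as fitted, 2 without rows under the 25th percentile of mean signal and 3 without rows under the median. They numbered 2 with the trended robust prior and 0 with any 1 array left out. Rises over all transcript clusters numbered 575 as fitted, 634 and 667 with those filters, and 750 with that prior. Both filters test fewer rows. The filter at the median leaves out Hes1, Notch4 and Dll1, so its 3 calls are not out of all members. The replicate block, which adds the replicate number to the fit, gave 0 members (Notch1 adjusted p = 0.0656) and 633 transcript clusters against 723. Deviations of same-numbered arrays correlated at 0 to 0.04, so the numbers were not taken to pair the embryos. The sign turned without some arrays for Notch4 and Dll1, both below background, with log2 differences from -0.11 to 0.31 and from -0.07 to 0.22, for Nrarp (-0.24 to 0.10) and for Cdh5 (-0.17 to 0.03). Over all transcript clusters, calls numbered 360 to 697 with 1 array left out, rises 305 to 565 and falls 55 to 132; falls were 257 without rows under the median and 243 with the trended robust prior. Hey2 and Fbxw7 passed in all 13 alternatives. A mean over several rows of a gene was not run, since each of these genes had 1 row. Hes1 lies near background, which limits its fold.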

Other observations

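Of 5 measured arterial endothelial markers none passed (limma, with an unadjusted p under 0.05 for 0 higher and 1 lower). Their mean deviation was -0.03 to 0.19 in control and -0.14 to -0.04 in mutant ducts, so the list was narrowly lower in mutants without overlap. The 1 lower gene was Efnb2, the ephrin ligand of arteries that Notch can induce, named after its values were seen. Efnb2 stood at the 98.7th percentile of mean signal, and which cells of the duct gave that signal was not tested. Its log2 signals were 16.12, 15.75 and 15.72 in control and 15.28, 15.27 and 15.26 in mutant ducts, so the groups did not overlap. The log2 difference was -0.59 ± 0.17 (SE), at a limma adjusted p of 0.120 (0.0227 to 0.338 over 13 alternatives), opposite in sign to those of Dll4 and Hey2. Sox17, a factor of arterial endothelium, was at 7.12, 6.41 and 6.86 in control and 5.80, 6.03 and 5.65 in mutant ducts, where mutant 3 was below background.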
